A study of Homo sapiens with 10 samples.

Results

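The stem cell markers and factors were 10 genes of the 46427 in the deposited expression table, chosen by gene symbol. They were 5 transcription factors of pluripotency and reprogramming (SOX2, POU5F1, NANOG, KLF4 and MYC), 4 surface markers of stem-like cancer cells (PROM1, CD44, CD24 and LGR5) and 1 polycomb factor (BMI1). Their RNA was examined in 10 RNA sequencing libraries of the established lung cancer lines H460, a large cell carcinoma line, and A549, an adenocarcinoma line. H460 cells gave 3 parental libraries from 2D culture, which is adherent growth on plastic, and 1 library of tumor sphere (TS) cells. They also gave libraries of cells that had survived chemotherapy, namely 1 cisplatin-resistant (CR), 2 paclitaxel-resistant (PR) and 1 doxorubicin-resistant (DR) library. A549 cells gave 1 library from 2D culture and 1 of TS cells. The drug-resistant cells were those that attached again after drug exposure, a recovery period in fresh medium and replating. TS cells grew in suspension on coated plates in serum-free medium with growth factors and had been passaged, and their labels call them CTC after the culture method for circulating tumor cells. No group carried a genetic change made by the study, and the libraries were of whole cultures, in which fewer cells of a type and less RNA per cell cannot be told apart.

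OCT4 (encoded by POU5F1), SOX2 and NANOG bind DNA together and hold embryonic stem cells in the pluripotent state, while KLF4 and MYC join OCT4 and SOX2 in the classical reprogramming of somatic cells. Surface proteins are used to sort stem-like tumor cells, among them CD44, the receptor of hyaluronan, CD24, a small glycosylated protein held by a lipid anchor, PROM1 (CD133), a pentaspan membrane protein, and LGR5, a receptor of R-spondins that raises WNT signalling. BMI1 is a subunit of polycomb repressive complex 1 (PRC1) and represses the cell cycle inhibitors of the CDKN2A locus. Cells with much CD44 and little CD24 are a well known stem-like fraction of breast tumors, and in lung cancer CD44 and CD133 have been used in the same way. Levels below are in FPKM, which are fragment counts scaled by transcript length and by library size. This sets genes of different length on 1 scale.

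Of the members, CD24 and POU5F1 are both on chromosome 6, NANOG and LGR5 are both on chromosome 12, and the others lie on chromosomes of their own. In GENCODE 29 on GRCh38, CD44 spans chr11:35138870-35232402 on the plus strand and CD24 spans chr6:106969831-106975627 on the minus strand. A RefSeq promoter sequence of 300 bases, from 250 before to 50 after the RefSeq start, was matched for 7 of the 10 members (SOX2, NANOG, KLF4, PROM1, CD44, CD24 and BMI1). The RefSeq start can differ from that of GENCODE, and the CD44 window lies within the GENCODE span of the gene. Those of CD44 and CD24 are shown because these surface markers had the largest differences in H460 TS cells on the log2(FPKM + 1) scale. They are written 5′ to 3′ on the strand of the gene, on GRCh38.p14, at chr11:35138921-35139220 for CD44 and chr6:106975578-106975877 for CD24, and capitals mark GC boxes, the letters GGGCGG on either strand.
CD44 promoter: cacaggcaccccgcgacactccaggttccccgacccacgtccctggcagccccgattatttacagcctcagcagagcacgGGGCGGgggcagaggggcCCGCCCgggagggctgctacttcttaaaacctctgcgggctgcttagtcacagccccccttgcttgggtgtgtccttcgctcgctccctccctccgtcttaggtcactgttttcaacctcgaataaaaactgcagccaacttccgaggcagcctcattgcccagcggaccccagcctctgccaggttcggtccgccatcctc
CD24 promoter: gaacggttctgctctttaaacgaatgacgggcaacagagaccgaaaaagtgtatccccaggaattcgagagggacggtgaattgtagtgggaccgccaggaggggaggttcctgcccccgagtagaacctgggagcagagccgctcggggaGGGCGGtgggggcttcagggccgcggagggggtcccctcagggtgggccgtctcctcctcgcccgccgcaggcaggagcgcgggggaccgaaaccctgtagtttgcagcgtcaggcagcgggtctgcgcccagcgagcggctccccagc
The CD44 window held 2 GC boxes and the CD24 window 1, and 44.6% of the 27305 promoters of the same length held at least 1. Neither window held the box with letters CCAAT, the TATA box with letters TATAAA, the E-box CACGTG that MYC and MAX bind, the E-box CAGGTG of other factors, or the AP-1 letters TGANTCA. Each motif was searched on both strands. The last 5 were found in 35.7%, 12.0%, 7.43%, 20.6% and 7.76% of all promoters, in that order. The share of G and C was 63.3% in the CD44 window and 66.7% in the CD24 window, with a median of 58.3% over all promoters. A match of letters describes the sequence and does not show that a factor binds there.

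Reads on genes numbered between 59499787 and 89541774 per library. The epithelial keratins KRT8 and KRT18 were between 283 and 3870 FPKM and between 190 and 3230 FPKM in all libraries, while KRT19 was at 3.57 in A549 2D cells, 68.3 in A549 TS cells and 138 or more in H460 libraries. However, the epithelial adhesion genes EPCAM and CDH1 did not exceed 0.114 and 0.0266 FPKM in H460 cells. Summed levels of 5 lung lineage genes, such as the surfactant genes, did not exceed 0.559 FPKM in any library. Markers of other cell types differed between groups. LUM, a matrix proteoglycan, was at 26.6 FPKM in H460 TS cells and 0.237, 2.76 and 1.57 in parental replicates 1 to 3. The summed fibroblast list was 28.3 FPKM in H460 TS cells against 1.29 to 6.00 in parental cells, with COL1A2 listed at 0 in both. The summed leukocyte list was 47.9 FPKM in A549 TS cells against 2.37 in A549 2D cells, with LYZ (lysozyme) at 37.7 against 0, CD14 at 10.1 against 2.37 and the defining marker PTPRC at 0.00459. The part of these lists in the results below was not tested. Across genes, H460 TS cells were more like H460 2D cells (Pearson's r between 0.973 and 0.981 over 20824 genes) than like A549 cells (between 0.891 and 0.907), and genes are not independent replicates.

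In parental H460 cells, CD24 had the highest mean level of the members, at 149 ± 55.6 FPKM (SD, n = 3), and lay above MYC in each of the 3 libraries. MYC followed at 66.7 ± 16.2, CD44 at 38.1 ± 1.61 and KLF4 at 26.9 ± 17.7. KLF4 and CD44 did not differ beyond their spread, since KLF4 ranged from 14.9 to 47.3. BMI1 was at 7.45 ± 1.28, SOX2 at 0.655 ± 0.174 and LGR5 at 0.151 ± 0.133. PROM1 had no more than 2 reads in any of the 3 libraries, and POU5F1 and NANOG had none. A count of 0 allows up to 3 reads in a library, so the last 3 genes were at the limit of detection.

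**Figure D1:**
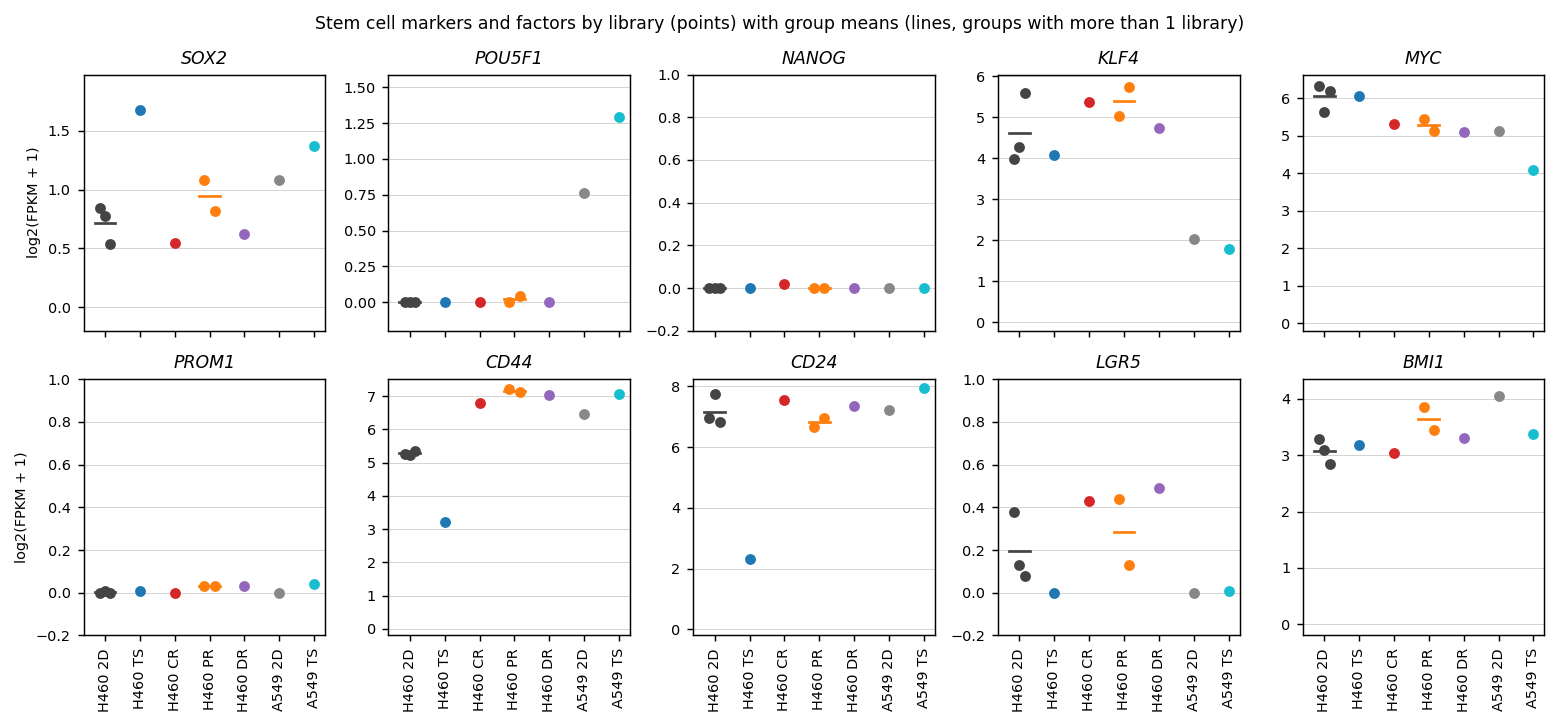
Level of each of the 10 members as log2(FPKM + 1), with each panel on its own axis, in the 7 groups of libraries. Points are libraries and short lines are means of the groups with more than 1 library. CD44 and CD24 are lowest in the H460 TS library, POU5F1 has a level above 1 read only in A549 cells and 1 PR library, and KLF4 is lowest in both A549 libraries.

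The first comparison asked which stem cell genes differ between TS cells and 2D culture. In H460 cells CD24 and CD44 were both much lower in TS cells, SOX2 was higher, and LGR5 had no reads. In A549 cells the same surface markers were slightly higher in TS cells, and MYC was lower. With both lines fitted together, 0 of the 8 members tested passed an adjusted p of 0.05 in edgeR's quasi-likelihood test, where 35 of 18488 genes did (0.189%). At an unadjusted p under 0.05 it was 1 member, SOX2, against 7.36% of all genes, and no member was called by DESeq2 or limma either.

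CD24 was at 123, 212 and 111 FPKM in parental replicates 1 to 3 and at 3.97 in H460 TS cells, where 618 reads were counted against 21443 to 34063. In A549 cells CD24 was at 147 in 2D culture and 244 in TS cells. The H460 TS library lay far below all 3 of its controls, while that of A549 lay above its single control. The level was 37.4-fold lower in H460 TS cells than the parental mean and 1.66-fold higher in A549 TS cells. The difference of log2(FPKM + 1) in H460 was -4.85, and between -5.42 and -4.49 against each parental library alone. No other of the 20824 genes examined lay as far below parental cells in this library.

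The response of CD24 to TS culture differed between the lines, with a log2 difference of 5.99 ± 0.73 (SE) of the A549 from the H460 response and an adjusted p of 0.0192 in edgeR. It was the only member called among the 8 tested, with 0.471% of all genes called. The spread in this fit came from the 3 parental libraries alone, because the other groups had 1 library each and were assumed to vary alike. The call was lost with limma on log2(FPKM + 1), where the difference was 5.58 with an adjusted p of 0.121. CD24 has pseudogene copies of nearly the same sequence, and how shared reads were assigned is not given in the sources used here, so its count is uncertain. The copy CD24P2 had between 0 and 11 reads.

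CD44 was at 37.6, 36.8 and 39.9 FPKM in parental replicates 1 to 3 and at 8.25 in H460 TS cells. In A549 cells it was at 86.9 in 2D culture and 135 in TS cells. The parental libraries lay close together, and the TS library was 4.62-fold lower than their mean, whereas A549 TS cells were 1.55-fold higher than A549 2D cells. In H460 TS cells 44 of the 20824 genes (0.211%), CD44 included, lay as far below parental cells as CD44 did. The difference between the lines' responses was 2.88 ± 0.55 on the log2 scale, and its adjusted p of 0.0795 in edgeR missed the threshold. Among the alternatives it passed with DESeq2 and, in edgeR, without parental replicate 1, and it did not pass in the other 6. The difference itself was between 2.70 and 2.96 in all of these fits.

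Over both lines together, in which these markers moved in opposite directions, the log2 fold change was -2.45 ± 1.84 for CD24 and -0.93 ± 0.70 for CD44. Leaving out the A549 2D library makes the comparison that of the H460 TS library with the 3 parental libraries. CD24 then had a log2 fold change of -5.21 with an adjusted p of 0.00252, and CD44 one of -2.21 with an adjusted p of 0.0217, in edgeR. The same fit without the H460 TS library gave 0.78 for CD24 and 0.69 for CD44, with adjusted p of 0.811 and 0.767. In both of these fits the single TS library was assumed to vary like the 2D libraries.

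**Figure D2:**
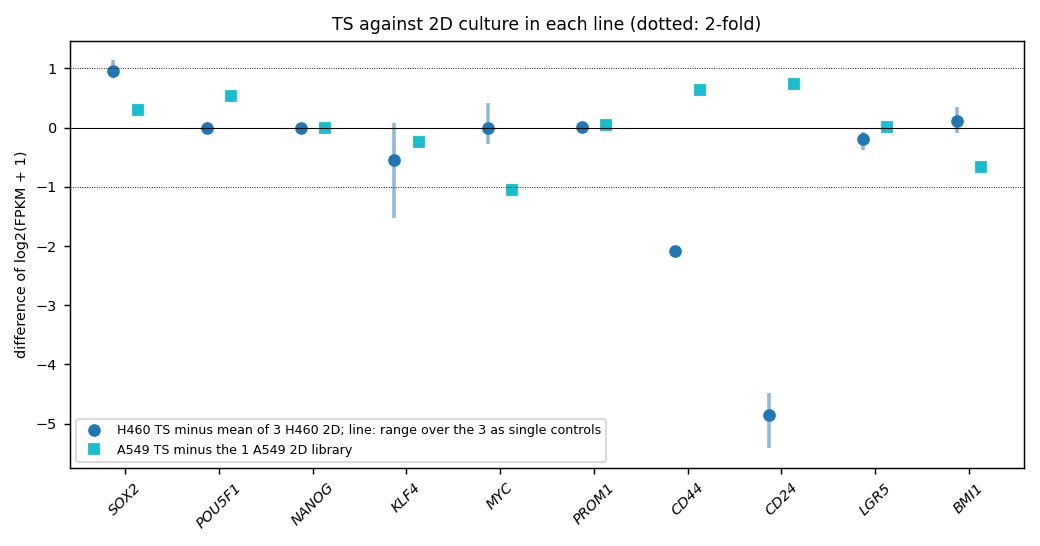
Difference of log2(FPKM + 1) between TS cells and 2D culture for each member, in H460 (circles, against the mean of the 3 parental libraries, with a line over the 3 libraries as single controls) and in A549 (squares, 1 library each). On this scale CD24 at -4.85 and CD44 at -2.08 are the members more than 2-fold lower in H460, and both are above 0 in A549. MYC at -1.05 is the member more than 2-fold lower in A549. The scale compresses low levels, with LGR5 at -0.2 in H460 although no read was counted in TS cells.

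More than 2-fold differences on the log2(FPKM + 1) scale were counted in 2 of 10 members in H460 TS cells, both lower, where 1.17% of all genes were lower and 1.12% higher. In A549 TS cells 1 of 10 was lower, MYC, where 1.82% of all genes were lower and 3.92% higher. These counts have no replicate check, since each line had 1 TS library. They also leave out members at low levels, which the scale compresses. SOX2 stood at 0.96 on it in H460 TS cells, where its FPKM was 3.37-fold higher. POU5F1 stood at 0.53 in A549 TS cells, where its FPKM was 2.09-fold higher. LGR5, with no read in H460 TS cells, stood at -0.2 there.

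Of the transcription factors, SOX2 was at 0.789, 0.716 and 0.459 FPKM in parental replicates 1 to 3 and at 2.21 in H460 TS cells. It was at 1.11 in A549 2D cells and 1.58 in A549 TS cells. Both TS libraries lay above their 2D controls, by 3.37-fold in H460 and 1.42-fold in A549. The log2 fold change over both lines was 1.32 ± 0.41, with an unadjusted p of 0.0149 and an adjusted p of 0.403 in edgeR. SOX2 had between 103 and 399 reads per library, and it lies within the long noncoding gene SOX2-OT, which had between 0 and 16.

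POU5F1 had no read in parental or TS H460 cells. It had 89 reads (0.689 FPKM) in A549 2D cells and 210 (1.44 FPKM) in A549 TS cells, a 2.09-fold difference between 2 single libraries. Its retained copies POU5F1B, POU5F1P3 and POU5F1P4 had at most 7 reads in any library. NANOG had 3 reads in CR cells and none in the other 9 libraries, so no level of it was detectable in TS cells of either line at this depth.

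MYC, which drives growth and ribosome production, was at 79.5, 48.4 and 72.1 FPKM in parental replicates 1 to 3 and at 65.4 in H460 TS cells, within their range. In A549 cells it was at 33.9 in 2D culture and 15.9 in TS cells, 2.14-fold lower. The responses of the lines differed by -1.01 ± 0.62 on the log2 scale with an adjusted p of 0.850 in edgeR. KLF4, a zinc finger factor of epithelia, was at 15.8 in H460 TS cells, within the wide parental range of 14.9 to 47.3, and at 3.07 and 2.44 in A549 2D and TS cells.

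LGR5 was at 0.304, 0.0918 and 0.0587 FPKM in parental replicates 1 to 3, and no read was counted in H460 TS cells. Taking 3 reads as the limit of a library with none, the parental mean was at least 16.6-fold higher and the lowest parental library at least 6.76-fold higher. A549 cells had 0 reads of LGR5 in 2D culture and 3 in TS cells. PROM1 had 2 reads in H460 TS cells and 11 in A549 TS cells, against none in A549 2D cells, and no fold is given for so few reads. BMI1 was at 8.70, 7.49 and 6.15 in parental replicates 1 to 3 and at 8.12 in H460 TS cells, within their range. It was at 15.6 in A549 2D cells and 9.40 in A549 TS cells, 1.66-fold lower.

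The second comparison asked how the members differ between the lines themselves, over both culture forms. POU5F1 and CD44 were higher in A549 cells and KLF4 and MYC lower, so that 4 of 8 members tested were called, where 23.7% of all genes were. KLF4 had a log2 fold change of -2.98 ± 0.62 with an adjusted p of 0.0160, and its highest A549 level of 3.07 FPKM was below the lowest H460 level of 14.9. MYC differed by -1.39 ± 0.36 with an adjusted p of 0.0317, and CD44 by 2.44 ± 0.65 with 0.0366, in edgeR. The size for CD44 depended on the libraries, from 1.17 to 4.08 on leaving out 1 of them. CD44 was at 86.9 FPKM in A549 2D cells against 36.8 to 39.9 in parental cells, and at 135 against 8.25 in TS cells. POU5F1 was at least 28.6-fold higher in A549 2D cells and at least 62.2-fold higher in A549 TS cells than the limit set by 3 reads over the H460 libraries, with an adjusted p of 0.00652. Its call was lost with DESeq2, at an adjusted p of 0.0706. BMI1 was not called in edgeR, at 0.74 ± 0.25 with an adjusted p of 0.0799. DESeq2 called it higher in A549 cells, at 0.75 with an adjusted p of 0.0387. The calls of MYC and CD44 were lost without parental replicate 1, at 0.0696 and 0.0741, and without parental replicate 3, at 0.0661 and 0.0646. That of CD44 was also lost without parental replicate 2, at 0.0883. MYC was likewise no longer called without the H460 TS library, at 0.143, or the A549 TS library, at 0.160, and KLF4 without the A549 2D library, at 0.0967. CD24 in A549 2D cells lay within the range of parental H460 cells, and its difference over both cultures, 2.70 ± 1.72 with an adjusted p of 0.301, was -0.04 without the H460 TS library.

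The third comparison asked which members differ between drug-resistant and parental H460 cells. CD44 was higher after each of the 3 drugs and MYC was lower after each of them. The other members either overlapped between the groups or were too low to test. Of 7 members tested, 1 was higher and 1 lower in edgeR, where 18.0% of all 19902 genes were higher and 14.4% lower, or 32.4% in either direction. The summed fibroblast list was 6.05 to 19.6 FPKM in drug-resistant and 1.29 to 6.00 in parental cells, with the collagen gene COL1A1 at 0.783 to 6.51 against 0.0848 to 0.193 and COL1A2 at no more than 0.0419. The summed leukocyte list was 11.7 to 17.5 FPKM against 2.84 to 9.49, nearly all of it CD14 at 11.5 to 17.1 against 2.78 to 9.49, with PTPRC at no more than 0.157. The part of these markers in the drug comparison was not tested.

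CD44 was at 109 FPKM in CR cells, 147 and 138 in PR replicates 1 and 2 and 131 in DR cells, against 36.8 to 39.9 in parental cells. The 4 drug-resistant libraries lay above all 3 parental libraries with a wide gap. CR cells stood at 2.86 times the parental mean, PR cells at 3.74 times and DR cells at 3.44 times. The log2 fold change was 1.68 ± 0.18 with an adjusted p of 0.000317 in edgeR. The label descriptions name libraries in 2 forms, with and without a hyphen. The difference of log2(FPKM + 1) was 1.75 with a hyphen, where 1 library was parental. It was 1.72 without one, where 1 library was drug-resistant. In PR cells alone the edgeR log2 fold change was 1.70 ± 0.23 with an adjusted p of 0.00168, where 28.2% of 19430 genes were called.

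MYC was at 38.3 FPKM in CR cells, 42.7 and 33.7 in PR replicates 1 and 2 and 33.6 in DR cells, against 79.5, 48.4 and 72.1 in parental replicates 1 to 3. The groups did not overlap, although PR replicate 1 and parental replicate 2 lay close to each other. The log2 fold change was -0.97 ± 0.22 with an adjusted p of 0.00986 in edgeR. Within the forms of library name the difference of log2(FPKM + 1) was -1.02 without a hyphen, where PR replicate 1 was the only drug-resistant library. It was -0.48 with one, where parental replicate 2 was the only control. With the form as a covariate the edgeR log2 fold change was -0.73 with an adjusted p of 0.0374. In PR cells alone it was -1.02 ± 0.31 with an adjusted p of 0.0350. That call was lost with upper-quartile scaling, both limma fits and the FPKM filter, and on leaving out any of parental replicates 1 and 3 and PR replicates 1 and 2, with an adjusted p of up to 0.358. The fit without parental replicate 3, which is the same as that of 4 libraries with no replicate block, gave 0.0601. Over all genes, 25.9% had drug-resistant libraries wholly above the parental ones and 12.8% wholly below.

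**Figure D3:**
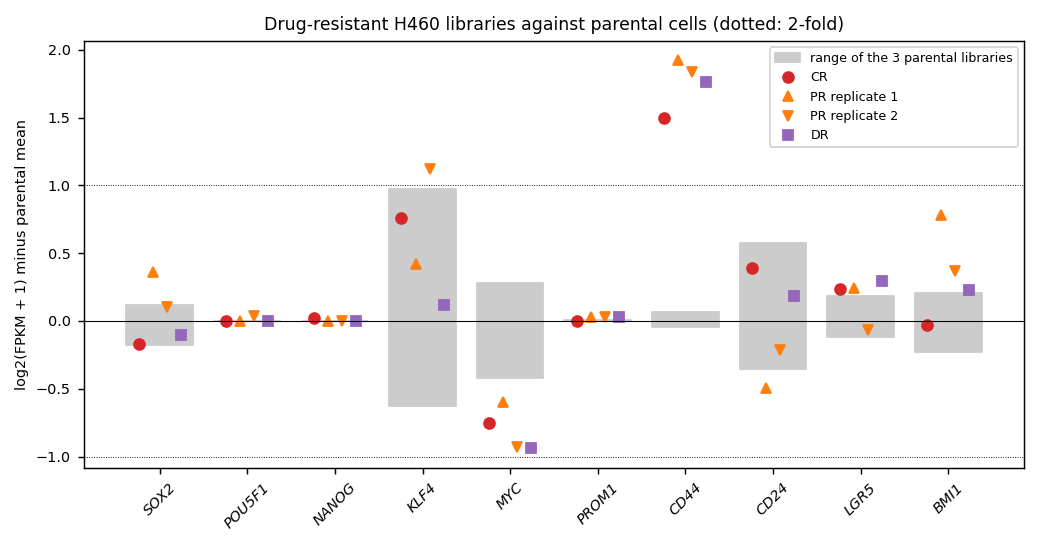
Difference of log2(FPKM + 1) from the parental mean for each member in the CR, PR and DR libraries of H460, with the range of the 3 parental libraries in grey. CD44 is above the parental range in all 4 drug-resistant libraries by at least 1.42, MYC is below it in all 4, and KLF4 and CD24 are spread over it or near it.

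CD24 was at 187 FPKM in CR, 101 and 122 in PR replicates 1 and 2 and 162 in DR cells, and the parental range of 111 to 212 overlapped all of these but PR replicate 1. Its log2 fold change was -0.14 ± 0.30, with an adjusted p of 0.743. For KLF4 the levels were 40.5 after cisplatin, 31.9 and 52.4 after paclitaxel and 25.7 after doxorubicin. Parental replicate 3, at 47.3, lay well above the 14.9 and 18.4 of the other parental libraries. Without it KLF4 was called higher in drug-resistant cells, at a log2 fold change of 1.06 and an adjusted p of 0.0198 in edgeR, against 0.32 ± 0.40 and 0.562 with it.

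BMI1 was at 7.22 after cisplatin, 13.5 and 9.89 after paclitaxel and 8.83 after doxorubicin, and 3 of these 4 libraries lay above the parental maximum of 8.70. Its log2 fold change was 0.27 ± 0.21 with an adjusted p of 0.342. The read-through gene COMMD3-BMI1 shares the exons of BMI1, and its share of the reads of both genes varied from 0.600% in DR cells to 21.3% in parental replicate 1. In CPM, which is the share of the library's counts scaled to a fixed total, both genes summed to 44.7, 34.6 and 27.7 in parental replicates 1 to 3, 31.5 after cisplatin, 59.7 and 39.9 after paclitaxel and 35.4 after doxorubicin, and the groups overlapped.

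SOX2 was at 0.468 after cisplatin, 1.11 and 0.763 after paclitaxel and 0.540 after doxorubicin, around the parental level. LGR5 was at 0.352, then 0.356 and 0.0914, and 0.407 in the same order. The last was the highest of all libraries, and parental replicate 1 at 0.304 lay among them, with a log2 fold change of 0.88 ± 0.65 and an adjusted p of 0.314. PROM1 had 9, 7 and 9 reads in PR replicates 1 and 2 and DR cells and none in CR cells, against 0 to 2 in parental cells. It was below the minimum of 10 reads in 2 libraries and was not tested. POU5F1 had 4 reads in PR replicate 2 and none in the other drug-resistant libraries.

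The ratio of CD44 to CD24, both in FPKM, was set beside these values after they were seen and is given with no test. It was 0.307, 0.173 and 0.360 in parental replicates 1 to 3, 2.08 in H460 TS cells, 0.581 after cisplatin, 1.46 and 1.12 after paclitaxel and 0.808 after doxorubicin. In A549 cells it was 0.591 in 2D culture and 0.553 in TS cells. The ratio was above the parental range in the TS and in all 4 drug-resistant libraries of H460. The levels behind it differed, since both genes were lowest in TS cells while CD44 was high and CD24 within or near the parental range in drug-resistant cells.

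**Figure D4:**
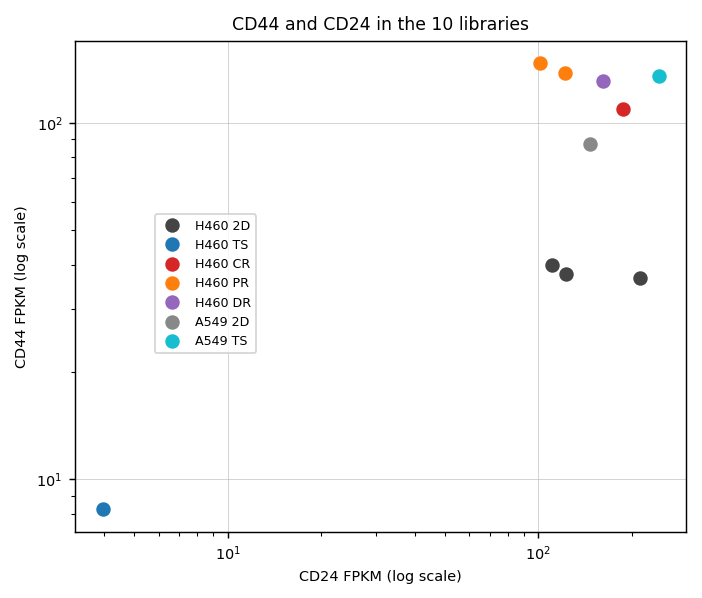
CD44 against CD24 level in FPKM, both on log scales, with 1 point for each of the 10 libraries. The 3 parental H460 points share a CD44 level of 36.8 to 39.9, the 4 drug-resistant points lie above them at a like CD24 level, and the H460 TS point lies apart at 8.25 and 3.97.

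Lists of genes related to the members, as partners, relatives or targets, were examined in the same fits. In TS cells against 2D culture 0 of their 113 tested genes passed an adjusted p of 0.05 in edgeR, while 16 (14.2%) had an unadjusted p under 0.05, against 7.36% of all genes. DESeq2 called 7 of them, and 537 (3.15%) of the 17054 genes to which it gave an adjusted p. With limma 1 of 90 was called on log2(FPKM + 1) and 0 on log2(FPKM + 0.1), and 0.229% and 0.150% of all 12674 genes. In the drug-resistant cells the MYC target genes had the lowest median of the lists. Of 20 genes that MYC activates, such as those of nucleolar and translation proteins, 14 were lower, none was higher and all 20 had a negative log2 fold change, where 14.4% of all genes tested were lower. The median was -0.96 against 0.11 over all genes tested. Of the 20 genes, 10 had drug-resistant libraries wholly below the parental ones and none wholly above, where 12.8% and 25.9% of all genes did. In the others the groups overlapped, and whether these genes followed MYC was not tested. FBL, the methyltransferase of ribosomal RNA, was at 56.9 ± 5.06 FPKM in drug-resistant (SD, n = 4) and 199 ± 22.2 in parental cells (SD, n = 3), with a log2 fold change of -1.92 ± 0.17. ODC1, which makes polyamines, fell from 155 ± 94.2 to 49.9 ± 5.95, by 1.76 ± 0.34 on the log2 scale. In PR cells alone 10 of the 20 were lower, where 10.8% of all genes were. The response to TS culture was more negative in A549 than in H460 for all 20 genes, and for none of them did the difference pass an adjusted p of 0.05.

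In the MYC-MAX network, MXD1 and MXD4, which compete with MYC for its partner MAX, rose by 1.52 ± 0.30 and 0.86 ± 0.27 on the log2 scale in drug-resistant cells. MXD3 of the same family and MLX fell, by 2.35 ± 0.29 and 0.64 ± 0.20, and 4 of 12 tested genes were called, a share of 33.3% beside the 32.4% of all genes. MXD3 was at 2.26 ± 0.112 FPKM in drug-resistant and 12.1 ± 5.81 in parental cells. The groups overlapped for MLX, with CR cells at 21.7 FPKM and parental replicate 3 at 20.1. The listed PRC1 genes, which include relatives of BMI1 as well as partners, had 1 gene higher and 3 lower of 18, or 22.2%, below the 32.4% of all genes. CBX7, a chromobox subunit, rose by 1.02 ± 0.34, its relative CBX2 fell by 1.48 ± 0.20, and KDM2B, which brings PRC1 to CpG islands, fell by 1.18 ± 0.16. The catalytic subunits RING1 and RNF2 were at 13.2 ± 1.69 and 4.72 ± 0.679 FPKM in drug-resistant cells and 10.1 ± 1.56 and 4.95 ± 0.214 in parental cells, and did not pass the test.

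Among relatives of LGR5, 4 of 10 tested genes rose in drug-resistant cells and none fell, where 18.0% of all genes were higher and 14.4% lower. RSPO2, a ligand of LGR5, was at 1.21 ± 0.241 FPKM against 0.199 ± 0.0818 in parental cells, a log2 fold change of 2.46 ± 0.37. LGR6, a receptor of the same family, was at 0.0952 ± 0.0876 against 0.00256 ± 0.00444, with 2 parental libraries at 0. The genes listed with CD44 had 2 higher and 3 lower of 14, or 35.7%, beside 32.4% of all genes. HAS3, a hyaluronan synthase, rose by 2.33 ± 0.37, at 0.833 ± 0.209 FPKM against 0.150 ± 0.066 in parental cells. HMMR, a hyaluronan receptor with a role at the mitotic spindle, fell by 4.08 ± 0.57. HYAL1, a hyaluronidase, fell by 1.52 ± 0.49, though PR replicate 2 at 2.13 FPKM lay above parental replicate 1 at 1.83. ESRP1, a splicing factor that acts on CD44, was called higher at no more than 0.0413 FPKM in any drug-resistant library.

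The other surface markers of stem-like cells had 4 genes higher and 2 lower of 13, or 46.2%, beside 32.4% of all genes. CXCR4, a chemokine receptor, and NGFR, a neurotrophin receptor, were called higher at means of 0.470 ± 0.471 and 0.173 ± 0.135 FPKM. In CR cells both lay within the parental range, CXCR4 at 0.0286 and NGFR at 0.0357. NES (nestin) and ALCAM fell by 1.10 ± 0.21 and 0.61 ± 0.20 on the log2 scale. The groups overlapped for ALCAM, with PR replicate 1 at 18.3 FPKM and parental replicate 1 at 16.7. In the pluripotency network, 2 of 9 tested genes were higher and 2 lower, or 44.4%, beside the same 32.4%. TERT, the catalytic subunit of telomerase, fell from 1.65 ± 0.753 to 0.215 ± 0.167 FPKM, by 3.05 ± 0.50 on the log2 scale, and DNMT3B, a DNA methyltransferase, by 2.30 ± 0.28. ESRRB and NR5A2, nuclear receptors, were called higher at means of 0.241 ± 0.109 and 0.0412 ± 0.0162 FPKM. The SOX and KLF relatives had 2 genes higher and 1 lower of 15, or 20.0%, below the 32.4% of all genes. SOX4 and SOX9 rose by 1.60 ± 0.25 and 0.89 ± 0.26. SOX18 fell by 1.47 ± 0.38, at 0.180 ± 0.0505 FPKM against 0.453 ± 0.105 in parental cells. The other 12 did not pass the test. In all lists the test was edgeR's with Benjamini-Hochberg adjustment over all genes.

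**Figure D5:**
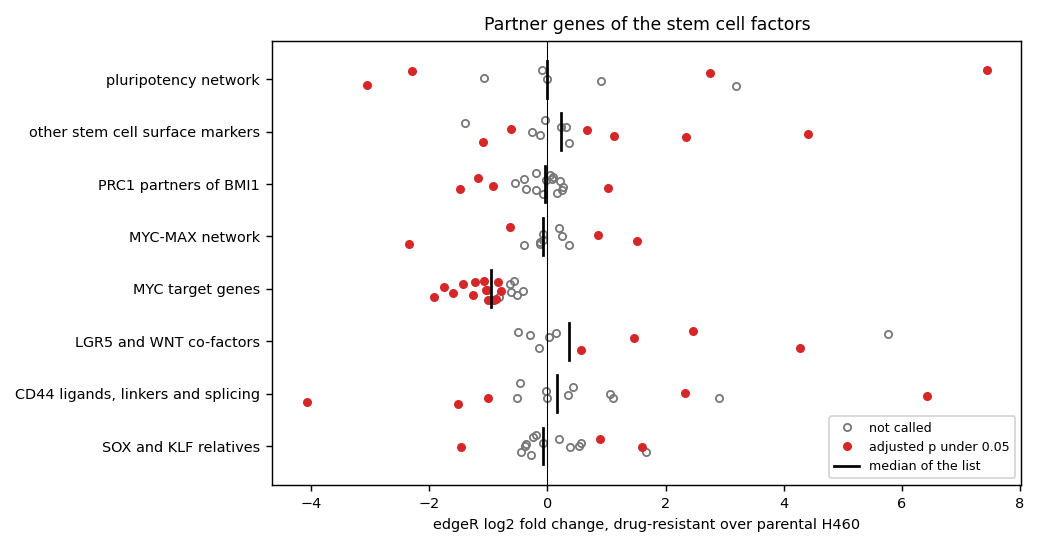
Log2 fold change between drug-resistant and parental H460 cells (edgeR) for the genes of 8 lists, with genes past an adjusted p of 0.05 filled and the median of each list as a line. All 20 MYC target genes lie below 0, while the other lists spread to both sides. Fitted values above 4 belong to genes at or near 0 in parental cells and depend on the small count added in the fit.

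Between the lines, 6 of 10 tested genes of the pluripotency network were higher in A549 cells and none was lower, where 14.3% of all genes were higher and 9.40% lower. LIN28B, a blocker of let-7 maturation, was at 1.88 and 2.23 FPKM in A549 2D and TS cells and listed at 0 in the parental and TS libraries of H460. NR5A2 was at 4.66 and 2.35 in A549 cells and at no more than 0.0504 in any H460 library. In the response to TS culture, NT5E (CD73), a surface nucleotidase, was the only list gene past an adjusted p of 0.05, by 5.01 ± 0.58 on the log2 scale with an adjusted p of 0.0174. It was at 13.5, 17.3 and 12.9 FPKM in parental replicates 1 to 3 and 2.27 in H460 TS cells. In A549 2D and TS cells it was at 8.49 and 42.5, the same pattern of levels as for CD24. As for CD24, each TS value rests on 1 library, and the spread in that fit came from the parental libraries alone. In drug-resistant cells NT5E was at 34.5 ± 5.80 FPKM (SD, n = 4) against 14.5 ± 2.37 (SD, n = 3), a log2 fold change of 1.12 ± 0.20 with an adjusted p of 0.00302, in edgeR.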

How the data were processed

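RNA sequencing of 10 libraries was examined. Per the labels, bcl2fastq 1.8.4, Trimmomatic, HISAT2 2.1.0, StringTie 2.1.3b and GRCh38 were named in the submitters' processing notes. The deposited counts are whole reads per gene, not normalized. The FPKM and TPM values were made by the authors from the same reads, normalized for transcript length and library size, and TPM was only summed for checking. Genes with 1 count were rarer than genes with 2, so a count may not be 1 independent read. Kit strand and the treatment of reads that match several genes are not given in the sources used here.

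Counts were tested with edgeR 4.0.16 (TMM, robust quasi-likelihood fit) in R 4.3.3, for genes with at least 10 counts in at least 2 libraries fitted, with Benjamini-Hochberg adjustment over all genes and a threshold of 0.05. SE was the log2 fold change over the root of F. TS was compared with 2D culture with the line as a covariate (6 libraries), the lines' responses by an interaction, 4 drug-resistant with 3 parental libraries, and 2 PR with 3 parental libraries. The 3 drugs were treated as samples of 1 group. Single libraries were compared as differences of log2(FPKM + 1), with a 2-fold limit and no test. Alternatives were upper-quartile factors, DESeq2 1.42.0, limma 3.58.1 (trend) on log2(FPKM + 1) and log2(FPKM + 0.1), no filter, an FPKM of at least 1, each library left out, the form of the library name as a covariate, and a replicate block. The scripts were tested on simulated counts with known changes and the same dispersion for all genes, which checks the code and not the spread of these libraries.

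The members and lists were chosen with earlier results of these data known. All members were named, and of each list at most the 2 higher and 2 lower called genes with the largest change. RNF2, RING1, SOX2-OT, NT5E in drug-resistant cells and the marker genes were named after their values were seen. The labels do not say whether replicates were separate cultures, so p-values measure only the spread between these libraries. Intervals for a count of 0 cover counting error only. Positions are from GENCODE 29 and promoters from RefSeq on GRCh38.p14.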

Additional observations from a re-analysis of the deposited data

Results flagged for a closer look

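The response of CD24 to TS culture differed between the lines. The interaction was 5.99 on the log2 scale, with CD24 lower in H460 TS cells than in each of 3 parental libraries and higher in the A549 TS library than in its 2D control. Each TS value rests on 1 library, and the culture form and the library cannot be told apart.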

How the results depend on the processing

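Of the values recomputed under the alternatives, CD44 in drug-resistant cells stayed called under each of them. Genes called in TS against 2D culture numbered 35, and 537 with DESeq2, 19 with limma on log2(FPKM + 0.1), 70 with no filter, 19 with the FPKM filter and 5 to 331 on leaving out a library, with 0 to 2 members called. On leaving out a library CD44 ranged from -2.21 to 0.69 and CD24 from -5.21 to 0.78, both reversed without the H460 TS library, and BMI1 from -0.68 to 0.15, reversed without the A549 2D (0.13) or TS library. In A549 against H460, 4382 genes were called, and 2836 with the FPKM filter and 1824 to 3828 on leaving out a library, with 2 to 4 members. There CD24 ranged from -0.04 without the H460 TS library to 5.98 without the A549 2D library, and was -0.00 without the A549 TS library, and SOX2 ranged from -0.44 without the A549 2D library to 0.77. For the difference between the lines' responses, 87 genes and 1 member were called, against 517 and 2 with DESeq2, 27 and 0 with limma on log2(FPKM + 1) and 72 to 584 and 1 to 2 on leaving out a parental library, where KLF4 ranged from -0.27 without parental replicate 3 to 0.81. That comparison could not be made without either TS library or the A549 2D library.

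In drug-resistant against parental cells, 6444 genes were called, and 4216 and 4237 with limma on log2(FPKM + 1) and log2(FPKM + 0.1) and 4235 to 6587 on leaving out a library, with 2 to 3 members. CD24 reversed to 0.02 with upper-quartile factors, and ranged from -0.35 to 0.15 on leaving out a library, positive without PR replicate 1 (0.02) or parental replicate 2. SOX2 reversed to -0.02 with no filter, -0.25 without PR replicate 1 and -0.19 without parental replicate 3. Upper-quartile factors moved the median over all tested genes from 0.11 to 0.29 and the share of called genes that were higher from 55.6% to 68.6%, and in PR cells from 0.05 to 0.30 and from 61.7% to 75.5%. In PR cells 5473 genes and 2 members were called, against 3026, 2773 and 2762 genes with limma on log2(FPKM + 1), on log2(FPKM + 0.1) and the FPKM filter, each with 1 member, as with upper-quartile factors. On leaving out a library it was 744 to 6652 genes and 1 to 2 members, and LGR5 ranged from -0.93 without PR replicate 1 to 1.40, and was -0.02 without parental replicate 3. Replicates 1 and 2 of PR and parental cells share only a number, and the correlation of their differences was 0.144. With a replicate block over these 4 libraries 6550 genes and 4 members were called, with KLF4 at 1.12 and CD24 at -0.73 added, and LGR5 reversed to -0.07. The same 4 libraries with no replicate block are the fit without parental replicate 3, with 6652 genes and LGR5 at -0.02. Except where shown by fewer libraries or genes, the cause was not tested. NANOG, with at most 3 reads in a library, and PROM1, with at most 11, did not pass the filter on low counts in any comparison.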
